A study of Mus musculus with 10 samples.

Results

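The genes described here are 9 core genes of insulin and IGF signaling, namely Insr, Irs1, Irs2, Igf1, Igf1r, Pik3r1, Akt2, Slc2a4 and Foxo1, measured in the bone marrow (BM) of mice transplanted with hematopoietic stem cells of fetal liver (FL-HSCs). The list was set by gene name and by no threshold on these values, with earlier results of these data known. Each is represented by the probe set that lists this gene alone and, where there are several, by the one with the highest mean, so that they are 9 of the 19938 genes with such a probe set. The VD(-) group holds BM of recipients of FL-HSCs from embryos of dams on a vitamin D-deficient diet, and the VD(+) group holds BM of recipients of FL-HSCs from embryos of dams on a vitamin D-sufficient diet. Each group has 5 arrays, 3 of single samples and 2 of pooled RNA. Donors and recipients were C57BL6 mice of both sexes, and all recipients, in both groups, were vitamin D-sufficient and had been lethally irradiated before transplant, so that blood cells came mainly from the donor and marrow stroma and other tissue from the host. The labels give an age of 8 weeks for the mice, and the time of collection differs between the text of the study and its legend. BM is the source given by the labels, although another field speaks of BM macrophages. It is not known if the pooled RNA came from the mice of the single samples, and p-values therefore reflect only the spread between these arrays, which may be partly technical.

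Insulin and IGF-1 act through related receptor tyrosine kinases. The receptor phosphorylates IRS adaptors, these recruit the PI3K lipid kinase through its regulatory subunit, and the lipid that PI3K makes brings AKT to the membrane, where it is activated. In fat and muscle AKT sends the glucose transporter GLUT4 to the cell surface, and in most cells it keeps FOXO transcription factors out of the nucleus. In BM, IGF-1 is made by stroma and macrophages and promotes the growth of B lineage and erythroid precursors, while Foxo1 is needed for B cell development. The study followed recipients of VD(-) HSCs for insulin resistance, and the comparison below asks whether the mRNA of these genes differed in their marrow. Since the RNA is of mixed cells, fewer cells of a type and less RNA per cell cannot be told apart.

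None of the 9 genes changed at an adjusted p under 0.05, where 0.118% of all 35556 probe sets were called (limma, Benjamini-Hochberg over all of them). At a nominal p under 0.05, which 7.09% of all probe sets passed, the count was also 0 of 9, and 0 of 9 had groups that did not overlap, against 1.55% of all probe sets. Of the 9 genes, 5 were higher and 4 lower in VD(-), and their median log2 fold change was 0.0087, beside 0.0010 over all genes. That median is the value of Akt2, whose probe set is in doubt and whose other probe set gave 0.17, as described below. Log2 fold changes lay between −0.16 and 0.25, so that the largest ratio of VD(-) over VD(+) was 1.19, for Igf1. The groups differed in sex composition, as described below, and the intervals given are of all arrays. The 95% interval of the difference excluded a change of 0.5 on the log2 scale in either direction for 8 of the 9 genes, the exception being Igf1. Smaller changes were hard to detect with 5 arrays against 5. In simulated data of this size, 2% of probe sets given a log2 change of 0.25, the size of the largest difference here, passed the adjusted p, and 54% a nominal p under 0.05. For a change of 0.5 the shares were 28% and 86%, and for a change of 1 they were 74% and 94%. The simulation drew independent normal values with the spread of each probe set and changed 50 probe sets per size. The shares are thus averages over probe sets of small and large spread and not specific to a member.

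**Figure D1:**
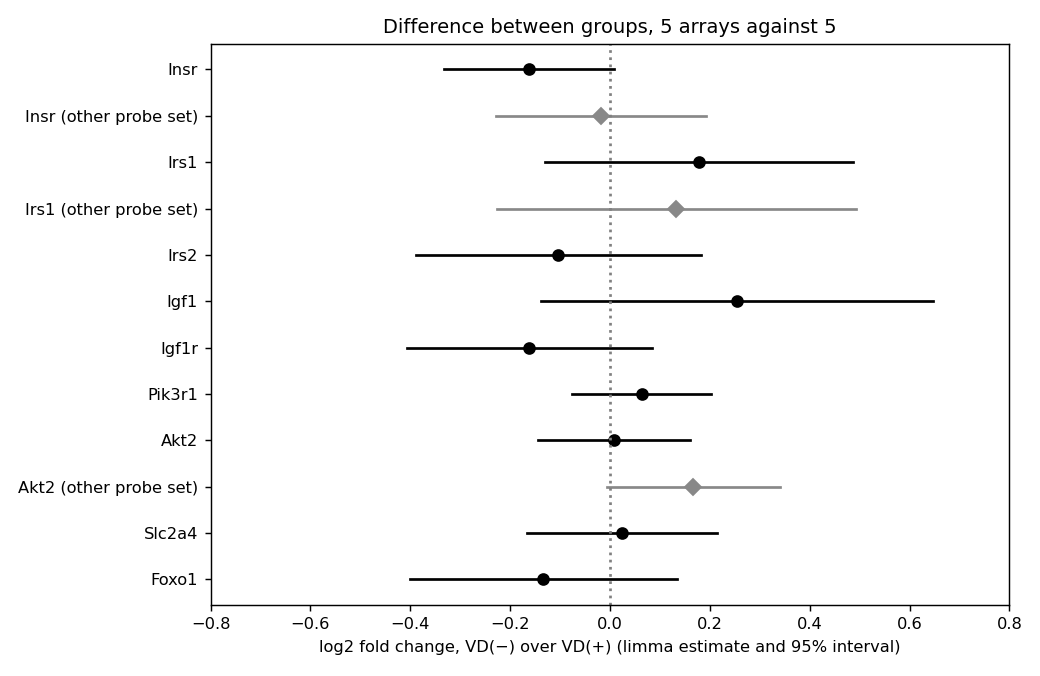
Log2 fold change of VD(-) over VD(+) HSC recipient BM for the 9 insulin signaling genes (black circles) and for the other single-gene probe set of Insr, Irs1 and Akt2 (grey diamonds), with limma's 95% intervals as lines, 5 arrays against 5. Every interval includes 0, and that of Igf1 is the widest, reaching 0.65.

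Over the whole table the arrays differed in more than their group. Averaged on the log2 scale, Kdm5d, Uty and Eif2s3y, which lie on the Y chromosome, were at 6.64, 6.80 and 5.31 in replicate 1, pool 1 and pool 2 of VD(-). In the remaining 7 arrays, which include every VD(+) array, they were at 2.25 to 2.56. Thus sex composition was not balanced between the groups, and the log2 fold change of each member is also given without those 3 arrays, which leaves 2 VD(-) arrays against 5. VD(-) pool 2 also carried skeletal muscle markers, with a mean over 6 genes of 7.78 against 5.09 to 5.46 in the 9 other arrays. All 8 neutrophil, 7 B lineage, 5 erythroid and 10 tissue macrophage markers measured had means above the median of all probe sets (4.74). So did most markers of the other cell type lists. The neutrophil mean lay between 11.66 and 11.99 in VD(-) and between 11.74 and 11.94 in VD(+). The erythroid mean lay between 9.38 and 9.65 in VD(-) and between 9.33 and 9.58 in VD(+). At these levels the arrays carry RNA of mixed marrow and not of macrophages alone.

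For both receptor genes the log2 fold change was negative and did not pass an adjusted p under 0.05. Insr, the insulin receptor gene (chromosome 8, 3150922 to 3279649, GRCm38.p6), had log2 values of 8.13, 8.21 and 8.29 in the VD(-) single samples and 7.97 and 8.13 in the VD(-) pools, against 8.28, 8.29 and 8.25 in the VD(+) single samples and 8.46 and 8.24 in the VD(+) pools. All 5 VD(-) arrays lay below the VD(+) mean, but VD(-) replicate 3 lay within the VD(+) range and the groups overlapped. The mean of 8.14 ± 0.12 in VD(-), against 8.31 ± 0.09 in VD(+) (SD, n = 5 arrays per group), corresponds to a log2 fold change of −0.16 (SE 0.077, 95% interval −0.33 to 0.0087, adjusted p = 0.724 from limma). A two-sided exact permutation test over the arrays gave p = 0.0397, unadjusted and 1 of 9 such tests, where 0.00794 is the smallest p this design allows. Insr passed a nominal p under 0.05 by the methods' own test, and missed it by limma. The lowest VD(-) value and the highest VD(+) value both came from pools. In the single samples alone the log2 fold change was −0.067 and in the pools alone −0.30, and without the 3 arrays with Y-linked signal it was −0.059.

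A second probe set of Insr did not show this difference. It had log2 values of 7.42, 7.42, 7.68, 7.13 and 7.51 in VD(-) replicates 1 to 3 and pools 1 and 2, against 7.44, 7.37, 7.51, 7.51 and 7.42 in the VD(+) arrays in the same order. The VD(-) arrays lay on both sides of the VD(+) arrays, and the log2 fold change was −0.018 (SE 0.095, 95% interval −0.23 to 0.19, adjusted p = 0.983 from limma). The annotation pairs this probe set with 3 transcript records and the first with 1.

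Igf1r, which encodes the IGF-1 receptor (chromosome 7, 67952257 to 68233668), had log2 values of 6.99, 6.99 and 7.26 in the VD(-) single samples and 6.68 and 6.90 in the VD(-) pools, against 7.36, 6.99 and 7.01 in the VD(+) single samples and 7.12 and 7.15 in the VD(+) pools. VD(-) replicate 1, only just, and both VD(-) pools were below every VD(+) array, and VD(-) replicate 2 equalled the lowest of them. VD(-) replicate 3 was above all VD(+) arrays but 1. The log2 fold change was −0.16 (SE 0.11, 95% interval −0.41 to 0.083, adjusted p = 0.805 from limma), and the exact permutation p was 0.206. Without VD(-) replicate 3 it was −0.24 and passed a nominal p under 0.05 (adjusted p = 0.635 from limma). Without the 3 VD(-) arrays with Y-linked signal it was 0.00091 (SE 0.13).

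**Figure D2:**
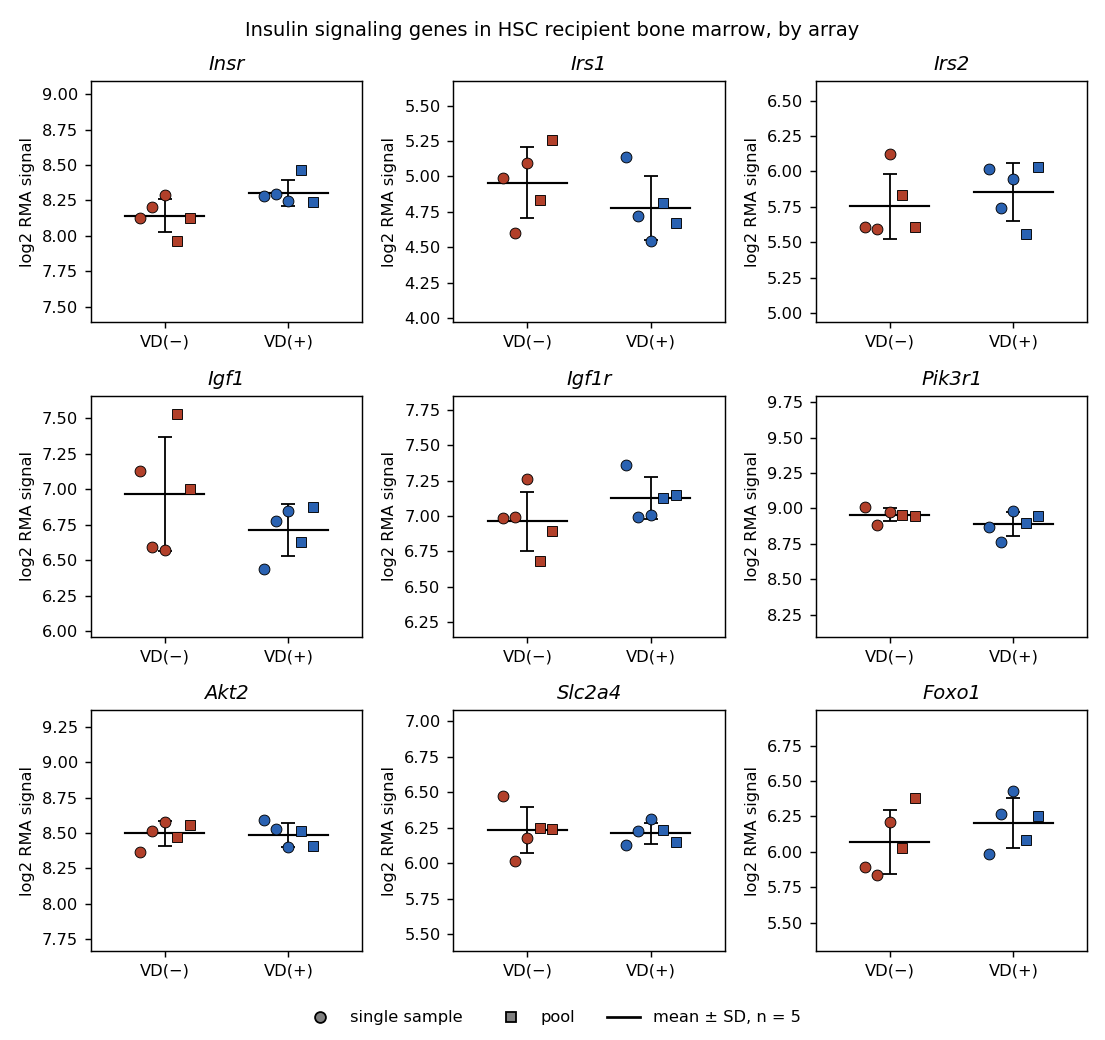
Log2 RMA signal of the 9 insulin signaling genes in each array, with VD(-) arrays in red on the left of each panel and VD(+) arrays in blue on the right; circles are single samples, squares are pools, and black lines give the mean ± SD (n = 5 each). Each panel spans 1.7 log2 units, and the groups overlap in all 9 panels.

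Igf1, the gene of the ligand (chromosome 10, 87858265 to 87937047), varied most among the VD(-) arrays. Its log2 values were 7.13, 6.59 and 6.58 in the VD(-) single samples and 7.53 and 7.00 in the VD(-) pools, against 6.44, 6.78 and 6.85 in the VD(+) single samples and 6.63 and 6.88 in the VD(+) pools. VD(-) replicate 1 and both VD(-) pools were above every VD(+) array, and the other 2 VD(-) arrays lay within the VD(+) range. The SD was 0.40 in VD(-) and 0.18 in VD(+), and the means of 6.97 and 6.71 gave a log2 fold change of 0.25 (SE 0.18, 95% interval −0.14 to 0.65, adjusted p = 0.806 from limma, exact permutation p = 0.254). The 3 VD(-) arrays with high Igf1 were the 3 with Y-linked signal. Without them the log2 fold change was −0.13, and with the Y-linked mean less that of Xist, the RNA of the inactive X, in the model it was −0.11. The Y-linked mean and Xist hardly varied in VD(+), so these values are not separate checks of each other.

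Markers of several cell types moved with Igf1 in these arrays, and others moved against it. After the mean of each group was taken off, Pearson r with Igf1 was 0.92 for the B lineage mean and 0.88 for the stroma mean. It was 0.84 for the adipocyte, 0.82 for the tissue macrophage, −0.73 for the neutrophil and −0.65 for the T and NK mean. In VD(-) pool 1, where Igf1 was highest, the mean log2 value was 5.97 for 7 adipocyte markers, 7.92 for 7 stroma markers (Adipoq is in both lists), 7.90 for 10 tissue macrophage markers and 7.98 for 7 B lineage markers, each the highest of all 10 arrays. In VD(-) replicate 3, where Igf1 was low, the B lineage mean was 6.34, the lowest of all. Over the arrays of a group, the adipocyte mean ranged over 4.97 to 5.97 in VD(-) and 4.96 to 5.37 in VD(+), and the stroma mean over 7.25 to 7.92 in VD(-) and 7.08 to 7.61 in VD(+). All 10 macrophage markers and all 7 stroma markers had a higher mean in VD(-), of which 2 of each list passed a nominal p under 0.05, as 7.00% of all genes did, and 0 an adjusted one (limma). The B lineage list went the other way, with 5 of 7 markers lower in VD(-), of which Ms4a1 (−0.45) and Pax5 (−0.28) passed the nominal p and 0 the adjusted one. In the 2 VD(-) arrays without Y-linked signal the mean was 7.27 for the stroma list, 7.37 for the macrophage list, 5.07 for the adipocyte list and 6.55 for the B lineage list, against 7.28, 7.26, 5.14 and 7.35 in VD(+). Without the 3 arrays 2 of 7 stroma, 6 of 10 macrophage, 2 of 7 adipocyte and 0 of 7 B lineage markers were higher in VD(-), and 6 B lineage markers were lower at a nominal p under 0.05. The T and NK mean was 6.98 in those 2 VD(-) arrays and 6.54 in VD(+). All 5 T and NK markers were higher in that fit, 2 of them at a nominal p under 0.05 (limma), beside 5.72% of all genes in either direction. The part of cell composition or of sex in the values of Igf1 was not tested beyond this. VD(-) pool 1 was also the array with the lowest Insr, the lowest Igf1r and the lowest value of the second Insr probe set.

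**Figure D3:**
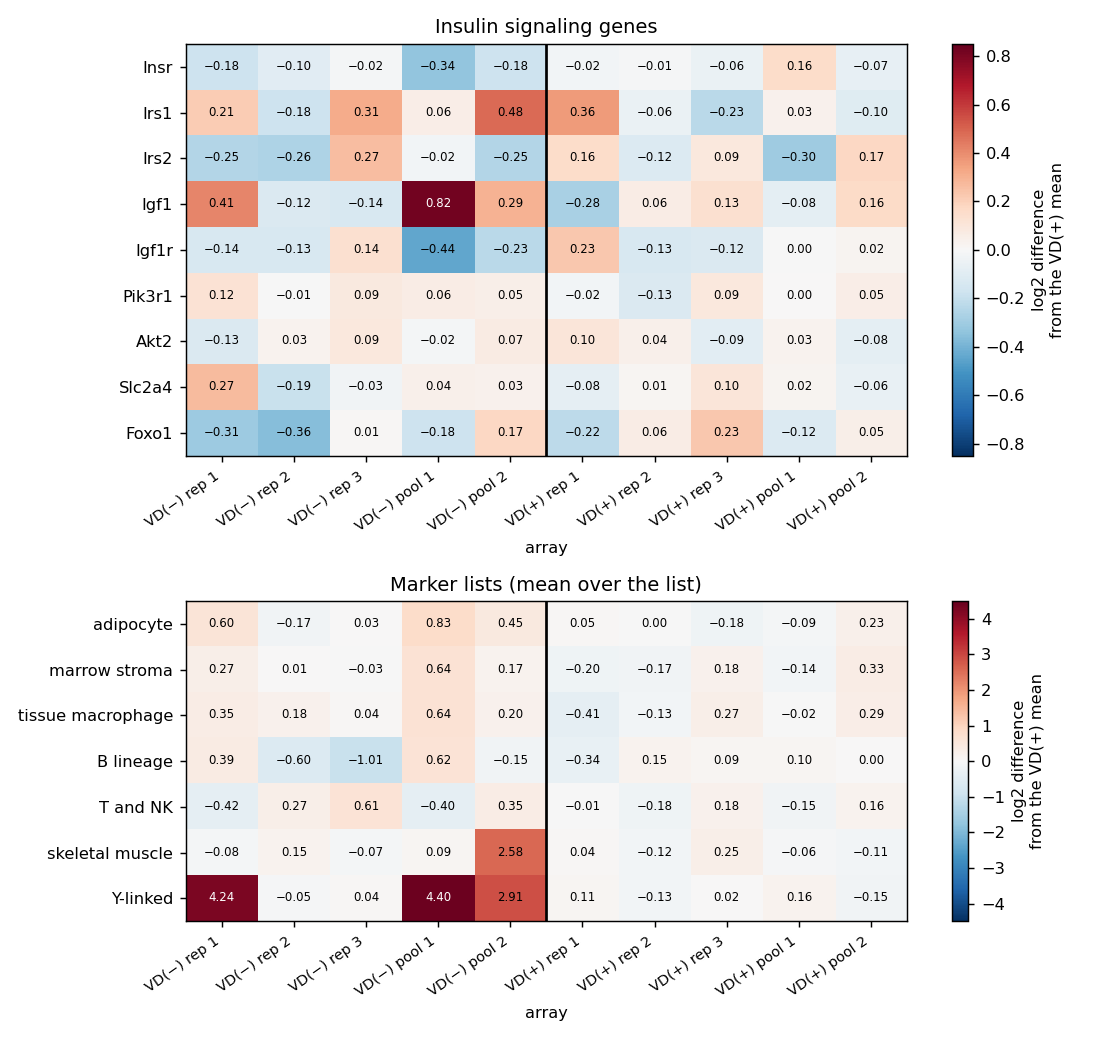
Each array's difference from the VD(+) mean on the log2 scale (colour and printed value), for the 9 insulin signaling genes (upper panel) and for the mean of 7 lists of marker genes (lower panel, with its own colour scale), VD(-) arrays left of the black line and VD(+) arrays right of it. Igf1 is 0.41, 0.82 and 0.29 above the VD(+) mean in VD(-) replicate 1, pool 1 and pool 2, the 3 arrays with Y-linked signal.

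The genes of the IRS adaptors, which carry the signal of both receptors to PI3K, differed less than their arrays spread. Irs1 (chromosome 1, 82233105 to 82291439) had log2 values of 4.99, 4.60 and 5.09 in the VD(-) single samples and 4.83 and 5.26 in the VD(-) pools, against 5.14, 4.72 and 4.55 in the VD(+) single samples and 4.81 and 4.67 in the VD(+) pools. The highest array was VD(-) pool 2 and the lowest VD(+) replicate 3, with the others mixed. VD(-) over VD(+) gave a log2 fold change of 0.18 (SE 0.14, 95% interval −0.13 to 0.49, adjusted p = 0.823 from limma, exact permutation p = 0.254). The mean of Irs1 lay at the 51.8th percentile of all probe sets, near the middle of the array's scale, where signal above background was not shown. A second probe set annotated to Irs1 gave 0.13 (SE 0.16, adjusted p = 0.896 from limma). Its values lay between 3.65 and 4.41 in VD(-) and between 3.71 and 4.35 in VD(+), and VD(-) replicate 2 was lowest in both probe sets among the VD(-) arrays. Irs1 lies on the minus strand, but the neighbours of the second probe set by number, where their strand is known, lie on the plus strand. Those of the first lie mostly on the minus strand. It was not settled if the second probe set reports Irs1 mRNA. Without the arrays with Y-linked signal the log2 fold change of Irs1 was 0.069.

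Irs2 (chromosome 8, 10984681 to 11008929), the other main IRS adaptor, had log2 values of 5.61, 5.60 and 6.12 in the VD(-) single samples and 5.84 and 5.61 in the VD(-) pools, against 6.01, 5.74 and 5.95 in the VD(+) single samples and 5.56 and 6.03 in the VD(+) pools. The highest array was of VD(-) and the lowest of VD(+), although 3 of the 5 VD(-) arrays lay close together near the low end. For Irs2 the log2 fold change was −0.10 (SE 0.13, 95% interval −0.39 to 0.18, adjusted p = 0.899 from limma, exact permutation p = 0.460), and 0.0021 without the arrays with Y-linked signal.

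Irs2 is a known target of FOXO factors, which bind insulin response elements, and the promoters of the members were read for the core letters of that element, TGTTTTG, on both strands. RefSeq promoter windows (GRCm38.p6, from 250 bases before to 50 after a start site) were at hand for 7 of the 9 genes, 11 windows in all, and those of Irs1 and Irs2 held the motif. Of all 32851 windows of 300 bases, 6.28% held it. The stretches are shown because these are the adaptor genes whose values are given above, with the motif in capitals.
Irs1, chr1:82291514-82291580, minus strand: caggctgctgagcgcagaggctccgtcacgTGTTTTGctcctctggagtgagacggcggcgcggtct
Irs1, chr1:82291435-82291501, minus strand: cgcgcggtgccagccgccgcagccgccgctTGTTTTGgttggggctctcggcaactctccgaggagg
Irs2, chr8:11008930-11008996, minus strand: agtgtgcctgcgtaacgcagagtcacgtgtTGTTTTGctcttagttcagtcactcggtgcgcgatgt
The motif starts at −111 and −32 from the start site in Irs1 and at −37 in Irs2. A match of letters is a description and does not show a binding site.

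Pik3r1 encodes p85α and its shorter forms, the regulatory subunits that dock PI3K on IRS proteins (chromosome 13, 101680761 to 101768217). Its log2 values were 9.01, 8.89 and 8.98 in the VD(-) single samples and 8.96 and 8.94 in the VD(-) pools, against 8.87, 8.77 and 8.98 in the VD(+) single samples and 8.89 and 8.95 in the VD(+) pools. The arrays of both groups lay close together, and no member had a smaller standard error. For Pik3r1 the log2 fold change was 0.063 (SE 0.063, 95% interval −0.075 to 0.20, adjusted p = 0.865 from limma, exact permutation p = 0.190). With all arrays a fall of more than 0.075 on the log2 scale thus lay outside the interval. Without the arrays with Y-linked signal the log2 fold change was 0.040 with a larger SE of 0.095, so that this bound does not carry over.

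The study connects Pik3r1 with the microRNA miR-106b-5p in adipocytes, and the mature sequence is shown for this reason, with the seed (bases 2 to 8) in capitals, from RefSeq (GRCm38.p6, chr5:138165787-138165807, minus strand).
mmu-miR-106b-5p: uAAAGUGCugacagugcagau
The array has a probe set for its precursor, Mir106b, which was looked up after its values were known. The log2 values were 3.40, 3.46, 3.30, 3.20 and 3.09 in the VD(-) arrays, against 4.11, 4.10, 3.65, 3.53 and 3.86 in the VD(+) arrays, and the groups did not overlap. For the precursor the log2 fold change was −0.56 (SE 0.13, adjusted p = 0.256 from limma, exact permutation p = 0.00794, the smallest possible), and −0.47 without the arrays with Y-linked signal. These values lay at the 31.7th percentile of all probe sets, where signal above background was not shown, and they are of the precursor and not of the mature microRNA. The study itself reports that many immature miRNAs were lower in BM cells of VD(-) HSC recipients. It also reports that macrophages of these recipients secreted more mature miR-106b-5p.

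Further genes that the study names in this pathway, mainly in adipocytes, differed little as well, and so did Akt1. The study speaks of AKT without naming an AKT gene. The log2 fold change was −0.042 for Pik3ca and −0.070 for Pik3cb, which encode catalytic subunits that pair with p85α. It was 0.025 for Pdpk1, the kinase that activates AKT, and −0.069 for Akt1. The adjusted p of these genes lay between 0.874 and 0.967 (limma). Pik3cd, which encodes another such catalytic subunit, had a log2 fold change of −0.15 (adjusted p = 0.848 from limma). Without the arrays with Y-linked signal the values were −0.022 for Pik3ca, 0.020 for Pik3cb, −0.055 for Pdpk1 and −0.021 for Akt1, so that the sign of Pik3cb and of Pdpk1 turned.

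Akt2, the AKT kinase that carries most of the insulin response of fat and muscle, is measured by a pair of probe sets that differed in their values. The brighter probe set, taken by the rule, had log2 values of 8.36, 8.52 and 8.58 in the VD(-) single samples and 8.47 and 8.56 in the VD(-) pools, against 8.59, 8.53 and 8.40 in the VD(+) single samples and 8.52 and 8.41 in the VD(+) pools. The arrays of both groups were fully mixed, with a log2 fold change of 0.0087 (SE 0.069, 95% interval −0.14 to 0.16, adjusted p = 0.990 from limma, exact permutation p = 0.881), and of 0.060 without the arrays with Y-linked signal. Akt2 lies on chromosome 7 (27591552 to 27640826), but all 6 neighbours of this probe set by number list genes of chromosome 11, such as Ikzf1 and Egfr. Only 2.74% of the 21698 single-gene probe sets with a known chromosome had 0 of 6 neighbours on their gene's chromosome.

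The other Akt2 probe set had 6 of 6 neighbours on chromosome 7. Its log2 values were 7.56, 7.63 and 7.47 in the VD(-) single samples and 7.32 and 7.59 in the VD(-) pools, against 7.34, 7.47 and 7.36 in the VD(+) single samples and 7.22 and 7.35 in the VD(+) pools. Of the VD(-) arrays, 4 lay at or above the highest VD(+) array, and VD(-) pool 1 lay within the VD(+) range. The log2 fold change was 0.17 (SE 0.078, 95% interval −0.0053 to 0.34, adjusted p = 0.717 from limma, exact permutation p = 0.0714). Both probe sets list the same number of transcript records, 10, and which of them reports Akt2 mRNA was not settled from the table.

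Slc2a4 encodes GLUT4, the insulin-regulated glucose transporter of fat and muscle (chromosome 11, 69942286 to 69948216). The log2 values were 6.48, 6.02 and 6.18 in the VD(-) single samples and 6.25 and 6.24 in the VD(-) pools, against 6.13, 6.22 and 6.31 in the VD(+) single samples and 6.23 and 6.15 in the VD(+) pools. VD(-) holds both the highest and the lowest array. For Slc2a4 the log2 fold change was 0.024 (SE 0.086, 95% interval −0.17 to 0.21, adjusted p = 0.972 from limma, exact permutation p = 0.786), and −0.11 without the arrays with Y-linked signal. In VD(-) pool 2, with the high skeletal muscle markers, Slc2a4 was at 6.24 and thus near its VD(+) values.

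Foxo1, the FOXO transcription factor that insulin restrains in liver and that early B cells need (chromosome 3, 52268337 to 52350109), had log2 values of 5.90, 5.84 and 6.21 in the VD(-) single samples and 6.02 and 6.38 in the VD(-) pools, against 5.98, 6.27 and 6.43 in the VD(+) single samples and 6.08 and 6.25 in the VD(+) pools. VD(-) replicates 1 and 2 were the lowest arrays and the others were mixed. For Foxo1 the log2 fold change was −0.13 (SE 0.12, 95% interval −0.40 to 0.13, adjusted p = 0.851 from limma, exact permutation p = 0.294), and −0.18 without the arrays with Y-linked signal.

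The rest of the pathway was taken from 8 lists by role. Of 137 further genes, 122 had a single-gene probe set. With all arrays none passed an adjusted p under 0.05, and 3 higher and 8 lower in VD(-) passed a nominal p under 0.05 (limma), which is 9.02% of them beside 7.00% of all genes. Of the 122 genes, 44 were higher and 78 lower, or 63.9% lower beside 49.7% of all genes, with a median log2 fold change of −0.040. Groups did not overlap for 4 of them, or 3.28%, beside 1.73% of all genes. These counts depended on the 3 arrays with Y-linked signal. When they were left out, 61 were higher and 61 lower, and 14 passed a nominal p under 0.05, or 11.5% beside 5.72% of all genes. With the Y-linked mean less Xist in the model, 62 were higher and 60 lower, and 19 passed it, or 15.6% beside 7.60% of all genes. In VD(+) the Y-linked mean (2.25 to 2.56) and Xist (10.16 to 10.30) hardly varied, so the covariate was estimated almost wholly within VD(-). This fit is therefore close to leaving out the 3 arrays and is not a separate check. In that model 1 gene passed an adjusted p under 0.05. This was Bcl6, a transcriptional repressor of germinal center B cells and a FOXO target, which is named after its values were seen. Its log2 values were 6.99, 7.69, 7.78, 6.99 and 7.34 in the VD(-) arrays, against 7.22, 7.17, 7.12, 7.16 and 7.09 in the VD(+) arrays. The VD(-) arrays thus lay on both sides of the VD(+) arrays, with the 2 without Y-linked signal highest. Its log2 fold change was 0.58 in that model (adjusted p = 0.0324 from limma), 0.21 with all arrays (adjusted p = 0.819) and 0.58 without the 3 arrays (adjusted p = 0.228).

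No gene of the ligands and binding proteins (12 measured), of the adaptors at the receptor (13) or of the MAPK arm (9) passed a nominal p under 0.05. Of the 13 PI3K subunits and partners 2 were lower at that threshold. Pik3c3, the class III enzyme of autophagy and vesicle traffic, was between 7.10 and 7.30 in VD(-) and between 7.33 and 7.50 in VD(+), and its log2 fold change was −0.24 (limma SE 0.066, adjusted p = 0.430), and Pik3ap1, the B cell adaptor BCAP, had −0.19. Of 14 kinases of the AKT arm, Prkcz, an atypical protein kinase C, was lower at that threshold (−0.33). Without the arrays with Y-linked signal the log2 fold change was −0.29 for Pik3c3, −0.30 for Pik3ap1 and −0.50 for Prkcz.

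Among 19 brakes on the pathway, Grb10, an adaptor that inhibits the insulin receptor, was higher (0.21) and Phlpp2, a phosphatase of AKT, lower (−0.23) at a nominal p under 0.05. Of 19 genes of glucose uptake and storage, Tbc1d4 alone passed it. Tbc1d4 encodes AS160, the AKT substrate that holds GLUT4 vesicles back, and its log2 values lay between 4.65 and 4.88 in VD(-) and between 4.26 and 4.65 in VD(+), so that the groups nearly touched. The log2 fold change was 0.23 (SE 0.090, adjusted p = 0.645 from limma), at a level near the median of all probe sets. When the arrays with Y-linked signal were left out, the values were 0.33 for Grb10, −0.39 for Phlpp2 and 0.35 for Tbc1d4.

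**Figure D4:**
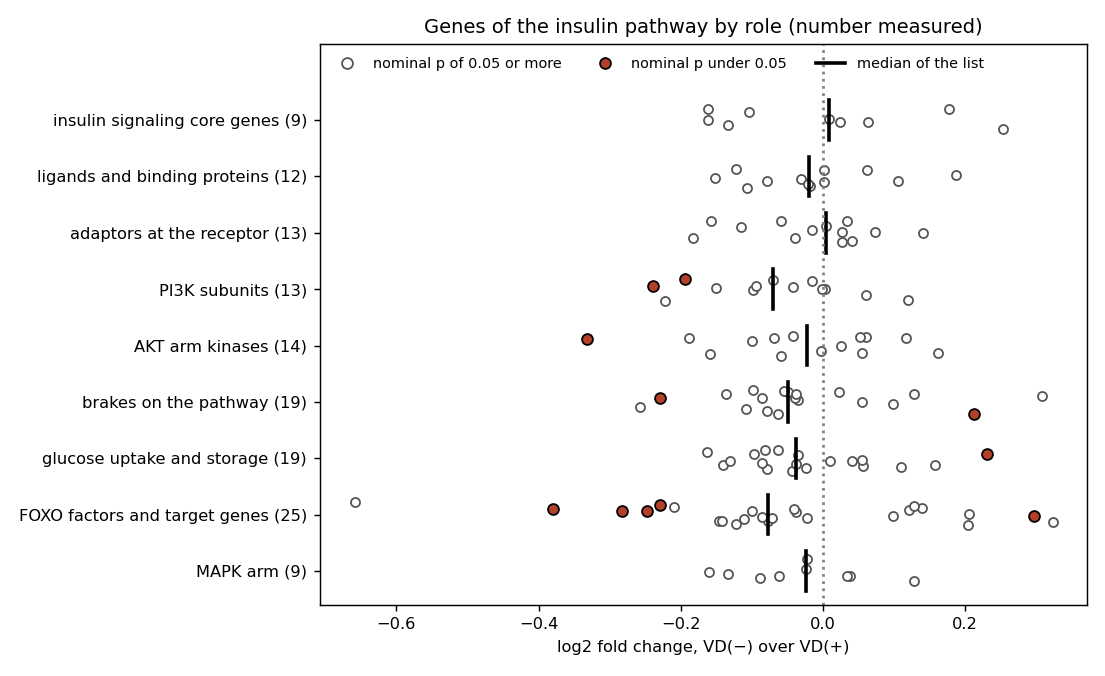
Log2 fold change of VD(-) over VD(+) HSC recipient BM for each measured gene of the insulin pathway, by role (1 point per gene, number measured in brackets), with genes at a nominal p under 0.05 in red and the median of each list as a black line. The core genes hold 0 of the red points, 7.00% of all genes pass that threshold, and the FOXO list holds 5 of the 11 red points.

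Of 25 FOXO factors and target genes measured, 5 passed a nominal p under 0.05, 1 higher and 4 lower in VD(-), and 0 an adjusted one. That is 20.0% of the list beside 7.00% of all genes, given as a description with no test of the list, and 4 of 25 (16.0%, beside 5.72% of all genes) when the arrays with Y-linked signal were left out. Txnip, which encodes an inhibitor of thioredoxin that also restrains glucose uptake, had log2 values of 10.02, 9.99, 10.08, 10.01 and 9.99 in the VD(-) arrays, against 10.41, 10.23, 10.51, 10.34 and 10.49 in the VD(+) arrays. All VD(-) arrays lay below all VD(+) arrays, and the log2 fold change was −0.38 (SE 0.068, adjusted p = 0.110 from limma). Gadd45a, a stress and DNA damage response gene, lay between 9.21 and 9.37 in VD(-) and between 9.45 and 9.68 in VD(+), again without overlap (−0.25, SE 0.065, adjusted p = 0.386 from limma). The cell cycle inhibitor gene Cdkn1b (−0.23) and the transcription factor gene Klf2 (−0.28) were the other lower genes, and Sod2, the mitochondrial superoxide dismutase gene, was higher (0.30), at a nominal p under 0.05 with all arrays. When the arrays with Y-linked signal were left out, the values were −0.36 for Txnip, −0.22 for Gadd45a, −0.17 for Cdkn1b, −0.23 for Klf2 and 0.26 for Sod2, of which Txnip alone still passed it. The lower genes are under the control of many other factors besides FOXO.

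Genes whose pattern over the arrays was most like that of a member were sought among 10154 genes with means above the median of all probe sets, after the mean of each group was taken off. For Igf1 these were Hmox1, the heme oxygenase gene of macrophages that take up red cells, Leprot and Cnot2, with Pearson r of 0.98, 0.98 and 0.97 over 10 arrays, and 3.98% of the genes searched had an r above 0.8. Insr was most like Agtpbp1 (0.96), Kdm4c (0.94) and Wdr77 (0.94), and Igf1r like Ppp6r1 (0.96), Kif2a (0.95) and Wwox (0.94). Foxo1 was most like Cd86 (0.93), Rtf1 and Odc1 (0.92 each). With 10 arrays and this many genes, an r above 0.9 was found for each of the 9 members, and these values are a description only.

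**Figure D5:**
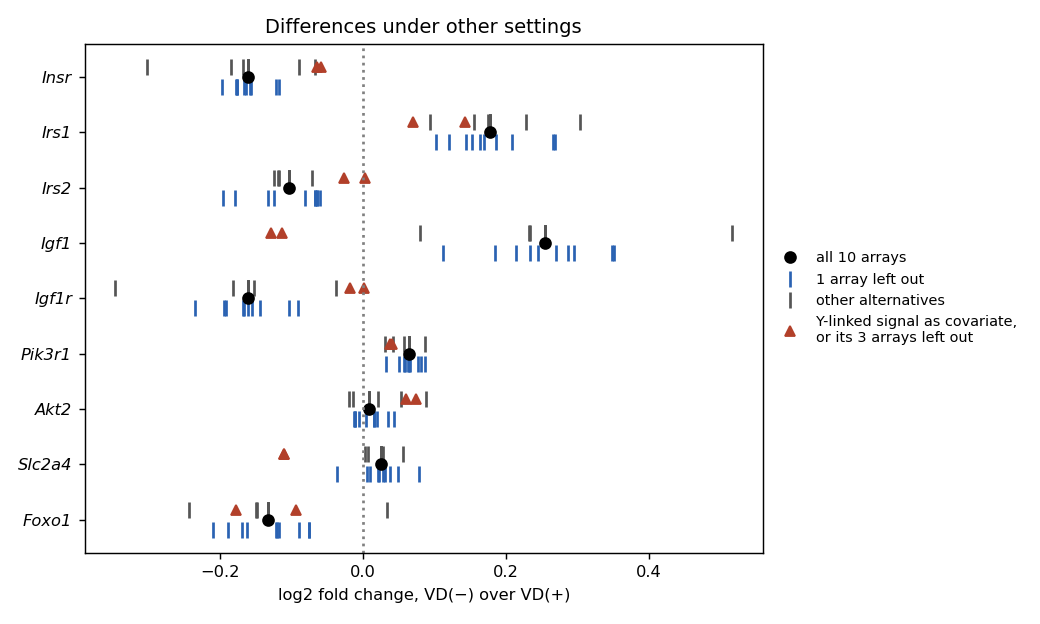
Log2 fold change of VD(-) over VD(+) for the 9 genes with all 10 arrays (black circles), with 1 array left out (blue ticks) and under other alternatives (grey ticks), and with the Y-linked mean less Xist in the model or its 3 arrays left out (red triangles). The red triangles of Igf1, at −0.11 and −0.13, lie on the other side of 0 from the black circle at 0.25.

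The direction of the difference held under all 22 alternatives for Insr, Irs1 and Pik3r1. For the other 6 genes it turned under at least 1 of them, and 14 of 198 values of members under an alternative had the opposite sign. The methods' t-test, brighter probe sets alone, the trended and robust spread, the pool covariate and the replicate block leave the fold change unchanged. Averaging probe sets leaves it unchanged for genes with 1 probe set. A sign could not turn there, so these counts overstate how often the direction was tested. None of the 198 passed an adjusted p under 0.05, the lowest being 0.540, and 7 passed a nominal p under 0.05, 5 of Insr and 2 of Igf1r.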

How the data were processed

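The authors processed the array signals in Partek with RMA, and the deposited values are log2 values per probe set, with array medians between 4.74 and 4.80. This method subtracts background, makes array distributions alike and combines the probes of a set, so differences in total RNA are removed. A miRNA array is named in the methods, but the probe sets are those of a mouse gene array for whole transcripts. Filters and the genome build were not given in the sources used here. Labelling started from 25 ng of RNA per the labels.

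Of 35556 probe sets, 21789 list 1 gene, 1621 several and 12146 none, and only the first kind was used to name genes, through the array's annotation table. Coordinates are of RefSeq genes (GRCm38.p6), matched by gene identifier for all 9 members. The comparison used limma 3.58.1 in R 4.3.3 (lmFit, eBayes, two-sided, no covariates) on all probe sets, with p-values adjusted by Benjamini-Hochberg over them, and each member also with an exact permutation test over 252 splits. The fit was tested on simulated data. Arrays give no read depth, so their number sets the precision.

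The members and lists were chosen with earlier results of these data known. Named genes are the members and their other probe sets, Pik3ca, Pik3cb, Pdpk1 and Akt1, up to 4 genes of smallest nominal p per list (of which some are printed) and the 3 genes most like each member. Mir106b, Klf2 and Bcl6 were added after their values were seen. Same-numbered arrays did not deviate together (r between −0.052 and 0.061). Alternatives were the methods' t-test, brighter probe sets alone, cyclic loess, array weights, a trended and robust spread, pool or single as a covariate, singles alone, pools alone, the replicate block, Y-linked less Xist as a covariate, the arrays without Y-linked signal, a gene's probe sets averaged and each array left out. The other probe set of a gene was added after seeing the data.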

Additional observations from a re-analysis of the deposited data

Results flagged for a closer look

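Of 24 groups of 5 arrays examined for a single array far from the others, 2 had one, and chance gives about 1 in 20. Insr was at 8.46 in VD(+) pool 1, the highest of its group, where the nearest VD(+) array was at 8.29. Without that array the log2 fold change of Insr was −0.12 (adjusted p = 0.806 from limma). The second Irs1 probe set, which may not report Irs1 mRNA, was at 3.65 in VD(-) replicate 2. That was the lowest of its group, where the nearest VD(-) array was at 4.24.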

How the results depend on the processing

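The count of members at a nominal p under 0.05 was 0 with all arrays and 1 under the methods' t-test, cyclic loess, array weights, the trended and robust spread and the pools alone, and lay between 0 and 2 when 1 array was left out (2 without VD(-) replicate 3, Insr and Igf1r). The 42 probe sets at an adjusted p under 0.05 became 9 by the methods' t-test, 1 in the single samples, 2 in the pools, 3 with the replicate block, 25 with the Y-linked covariate and 12 without the arrays with Y-linked signal, and 7 to 43 when 1 array was left out. The 11 further pathway genes at a nominal p under 0.05 became 4 in the single samples, 4 in the pools and 19 with the Y-linked covariate, and 6 to 11 when 1 array was left out. The replicate block left 0 members and 10 pathway genes, and same-numbered arrays shared only a number.

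Log2 fold changes of the opposite sign were found for Akt2 with cyclic loess (−0.014) and in the single samples (−0.021), for Foxo1 in the pools (0.033), for Igf1 (−0.11) and Slc2a4 (−0.11) with the Y-linked covariate, and without the arrays with Y-linked signal for Igf1 (−0.13), Slc2a4 (−0.11), Irs2 (0.0021) and Igf1r (0.00091). With 1 array left out, Akt2 lay between −0.014 and 0.042 and Slc2a4 between −0.037 and 0.078. The cause was not tested. The other probe set gave −0.018 for Insr, 0.13 for Irs1 and 0.17 for Akt2. For Irs1 and Akt2 it was not settled which probe sets report the gene. Changes under about 0.5 on the log2 scale are mostly beyond what 5 arrays against 5 can call at an adjusted p.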
